A study of Mus musculus with 8 samples.

Results

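The genes described here encode membrane proteins, digestive enzymes, activator proteins and enzyme maturation factors of the lysosome, without the cathepsins and the proton pump. They were given by name, in a list drawn up with earlier results of these data known, and found through their Ensembl identifiers in a table of 54532 genes. Of the 41 names given, Limp2 is an older name of Scarb2, which leaves 40 genes: 8 for membrane proteins, 28 for enzymes, 2 for activators and 2 for maturation factors. RNA was sequenced from microglia of the spinal cord of 8 female mice, with 1 mouse per library. The 4 KI mice carry a knock-in named Cd11b-P2X4mCherryIN. It concerns P2X4, an ATP-gated ion channel of the cell surface and of lysosomal membranes. The 4 WT mice are labelled WildType. The labels give no age, strain, disease or treatment for either group, and they do not state which promoter or which cells express the altered channel. Cells were sorted by flow cytometry as living and CD11b-positive, with little CD45 and no Ly6C at the surface.

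Lysosomes are acidic organelles in which macromolecules taken up from outside or delivered by autophagy are broken down. Their soluble enzymes are made in the endoplasmic reticulum, receive a mannose 6-phosphate tag in the Golgi and travel to the lysosome on receptors for that tag, while the membrane proteins carry sorting signals in their cytosolic tails. Loss of single enzymes causes lysosomal storage diseases, many of which affect the nervous system. Microglia, macrophages that live in the brain and spinal cord, use this compartment to digest debris, myelin and dying cells.

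Libraries held 45167483 to 54049801 reads on genes, and the 40 genes took 2.78% to 2.89% of them in KI libraries and 2.86% to 3.06% in WT libraries. The summed level of 9 microglial markers, P2ry12 and Tmem119 among them, was 25141 to 28503 CPM in KI libraries and 26725 to 30330.4 CPM in WT libraries (CPM, reads scaled to a common library size, here with TMM). Of the 9, 4 had an unadjusted p under 0.05 by edgeR, 3 lower and 1 higher in KI. Among all genes tested, 7.79% had such a p, 4.56% lower and 3.23% higher, and 49.9% had a fitted fold change below 0. Summed markers of monocytes (4.597 to 19.7 CPM in KI libraries and 6.698 to 10.7 CPM in WT libraries) and of border-associated macrophages (5.12 to 25.3 CPM in KI libraries and 7.64 to 11.2 CPM in WT libraries) were low and highest in KI 528. Erythroid markers summed to 96.6 to 307 CPM in KI libraries and 160.0 to 524 CPM in WT libraries, with all 6 tested below 0 in fitted fold change and 3 at an unadjusted p under 0.05. Oligodendrocyte markers summed to 149.7 to 279 CPM in KI libraries and 166 to 288 CPM in WT libraries, with 7 of 7 below 0 and 0 at an unadjusted p under 0.05 by edgeR. Immediate early genes, a known sign of handling during cell isolation, summed to 3262 to 9251 CPM in KI libraries and 3367 to 9559 CPM in WT libraries. Neutrophil markers summed to 219 to 298 CPM in KI libraries and 258 to 334 CPM in WT libraries. By edgeR, 1 of the 3 tested was lower in KI at an unadjusted p under 0.05. Astrocyte markers summed to 312 to 373 CPM in KI libraries and 315 to 381 CPM in WT libraries. The summed level overlapped between the groups in every marker list examined. P2rx4, the gene of P2X4, averaged 859 ± 62.7 CPM in KI and 793 ± 43.5 in WT (SD, n = 4 each), and a count per gene holds reads of the altered and the unaltered copy alike, so it is no check of the genotype. In a bulk sample, fewer cells that express a gene and less RNA of it per cell cannot be told apart.

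Mean levels of lysosomal transcripts over the 8 libraries ranged from 0.0726 to 4061 FPKM, on the deposited scale that divides by exon length. That length sums all annotated exons of a gene, so comparisons of levels between genes depend on the annotation. Lgmn stood highest with 4065 ± 189 FPKM in KI and 4058 ± 212 in WT (SD, n = 4 each). It encodes legumain, an asparagine-specific protease that also trims cathepsins to their mature forms. Cd68, a heavily glycosylated LAMP family protein of macrophages, followed at 1589.8 ± 70.02 FPKM in KI and 1441 ± 63.1 in WT. Psap, the precursor of the saposins that present sphingolipids to their hydrolases, had 1400.1 ± 96.6 FPKM in KI and 1603 ± 111 in WT. The order of Cd68 and Psap differed between the groups. Next came Laptm5 with 808 ± 25.8 FPKM in KI and 864 ± 44.4 in WT and Laptm4a with 599 ± 27.3 FPKM in KI and 589.9 ± 27.6 in WT, both membrane-spanning proteins of lysosomes. The acid ceramidase gene Asah1 (445 ± 5.004 FPKM in KI and 438 ± 10.8 in WT) and Hexa (408 ± 19.6 FPKM in KI and 462 ± 10.997 in WT) followed and did not keep one order either. Lamp1 was at 133 ± 25.3 FPKM in KI and 216 ± 26.9 in WT, and Lamp2 at 175 ± 3.86 FPKM in KI and 170.4 ± 6.32 in WT. The order of this pair in FPKM differed between the groups. At the low end were Arsa (2.36 ± 0.583 FPKM in KI and 2.87 ± 0.472 in WT) and Sgsh (0.992 ± 0.292 FPKM in KI and 1.16 ± 0.123 in WT). Acp5, the tartrate-resistant acid phosphatase known from osteoclasts and activated macrophages, had 0, 21, 9 and 22 reads in KI 513, KI 526, KI 528 and KI 549 and 0, 2, 1 and 0 reads in WT 503, WT 504, WT 506 and WT 527. It was the 1 member that did not pass the filter on low counts. The span of an antisense transcript, 6530413G14Rik, covers the whole span of Acp5, 8985 bases with introns included. How many exon bases the pair shares was not examined.

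**Figure D1:**
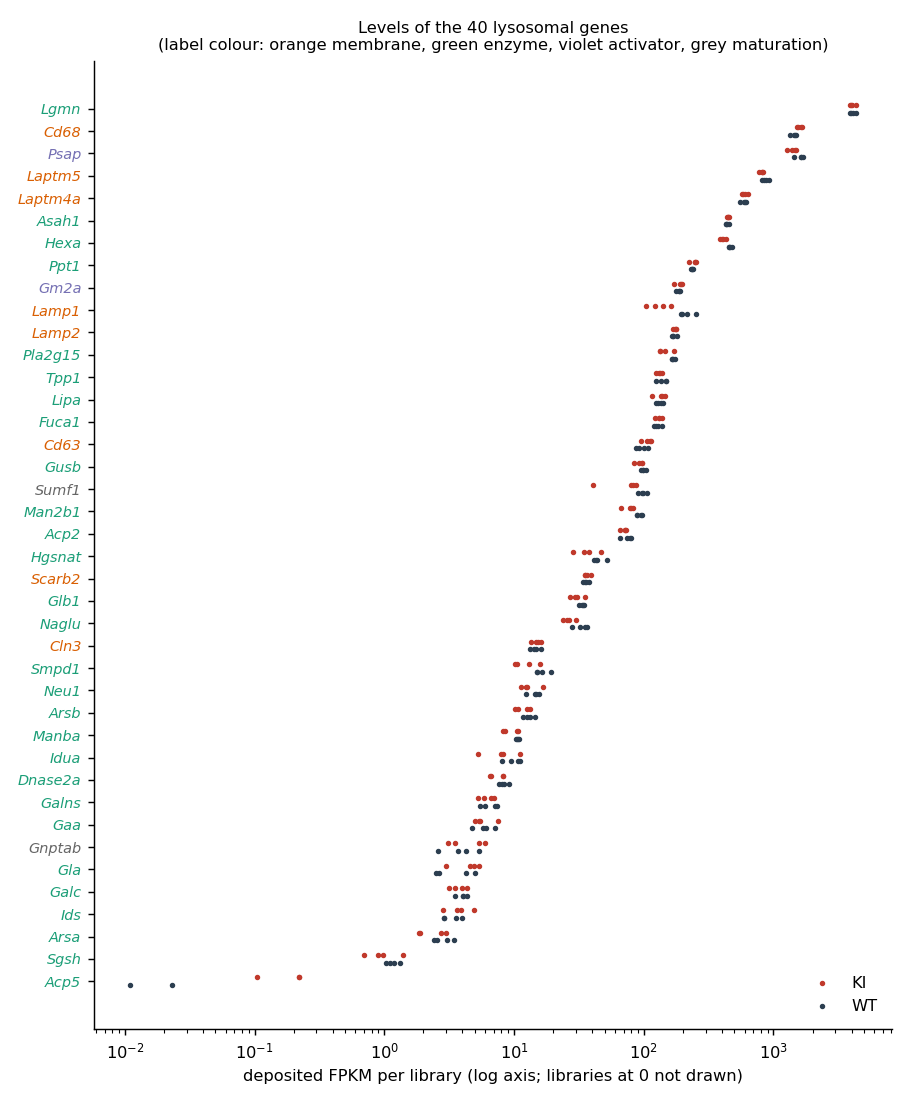
Deposited FPKM of the 40 lysosomal genes in each library on a log axis, with genes ordered by their mean over the 8 libraries. Lgmn stands at the top near 4061 FPKM and Acp5 at the bottom, and KI and WT points lie close together for most genes but apart for Lamp1.

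Whether lysosomal expression differed between KI and WT microglia, and whether enzymes and membrane proteins differed alike, was asked of the 39 members that passed the filter. With edgeR's quasi-likelihood test, adjusted over all 17291 genes, 0 members were called at an adjusted p under 0.05, as were 0 of all genes (0%). At an unadjusted p under 0.05 there were 8 members (20.5%), against 7.79% of all genes tested. Of these, Lamp1, Man2b1, Hexa, Naglu, Pla2g15, Smpd1 and Psap were lower in KI, where the share of all genes was 4.56%, and Cd68 was higher, where it was 3.23%. The count was 5 without WT 504 (where the share of all genes was 6.85%) and 12 without KI 549 (9.13% of all genes). The groups did not overlap for 4 members, Lamp1, Man2b1 and Hexa lower in KI, against 2.6% of all genes, and Cd68 higher, against 2.34%, with 4.94% in either direction. DESeq2 called 1 member, Lamp1 (adjusted p = 0.001802), against 1.26% of the genes it adjusted (0.881% lower and 0.382% higher in KI). The likelihood ratio test of edgeR also called 1 member, Lamp1 (adjusted p = 0.00176), against 0.243% (0.197% lower and 0.0463% higher). For 30 of the 39 members the whole 95% interval of the difference was smaller than 1.5-fold either way, and for 39 of 39 smaller than 2-fold. Of all 17291 genes tested, 6681 and 10161 lay within these limits.

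**Figure D2:**
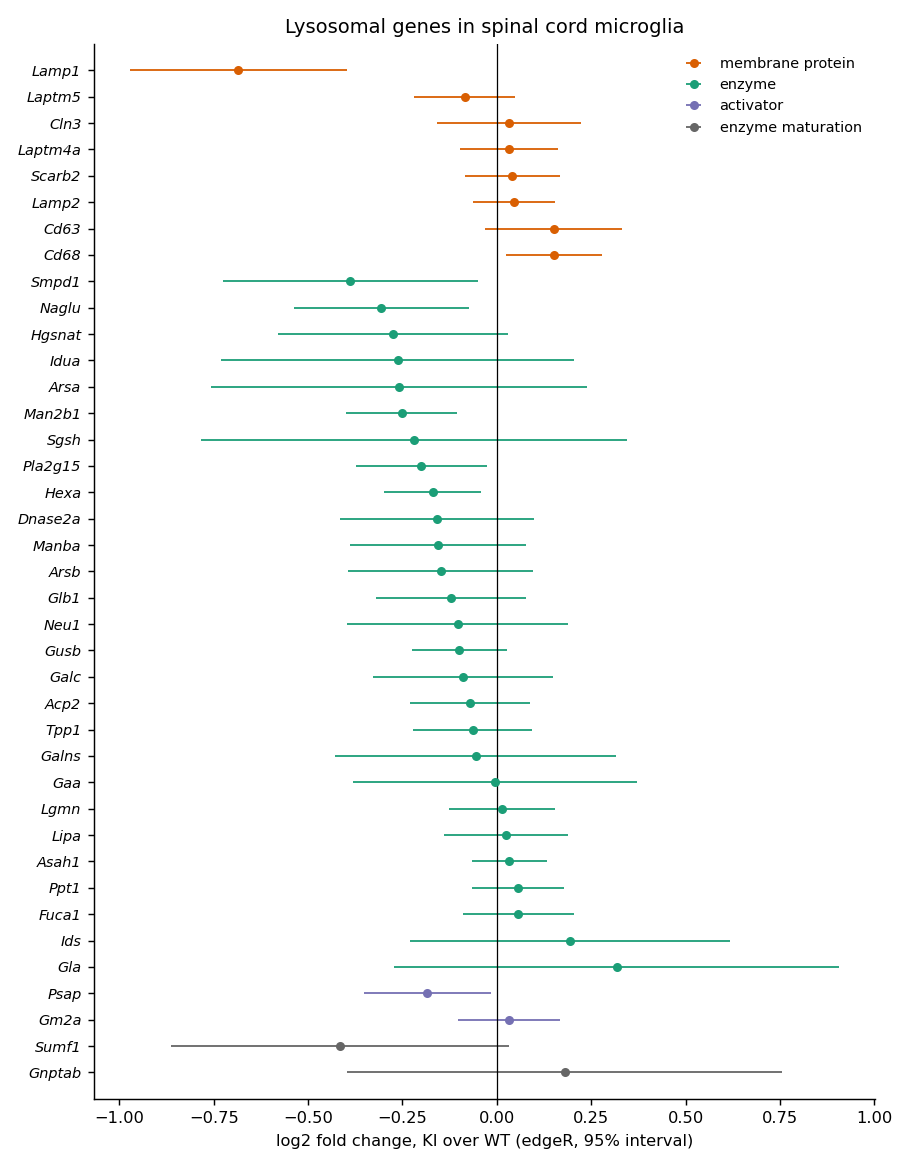
Fitted log2 fold change, KI over WT, with its 95% interval (edgeR) for the 39 members tested, by class. Lamp1 stands apart at −0.69 among membrane proteins that otherwise lie between −0.086 and 0.15, while 20 of 27 enzymes lie below 0.

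Among the membrane proteins, and among all members, Lamp1 had the smallest p. It encodes a densely glycosylated protein that lines the inner face of the lysosomal membrane and serves as a standard marker of the organelle. Lamp1 was read at 309, 395, 365 and 259.6 CPM in KI 513, KI 526, KI 528 and KI 549, against 619, 486, 490.1 and 541 CPM in WT 503, WT 504, WT 506 and WT 527. Every KI library lay below every WT library, and KI 549 was the lowest. Group means were 332 ± 60.2 CPM in KI and 534 ± 61.8 in WT (SD, n = 4 each), a fold of 0.622. The log2 fold change was −0.69 (95% interval −0.97 to −0.40), with an unadjusted p of 0.000335 and an adjusted p of 0.414 by edgeR's quasi-likelihood test. It ran from −0.78 to −0.58 with each library left out in turn. The gene (ENSMUSG00000031447, mm10 chromosome 8, 13159161 to 13175338, plus strand) shares 3317 bases of its span, introns included, with Grtp1 on the opposite strand. Grtp1 held 197 reads per library on average, against 21663 for Lamp1.

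Many lysosomal genes carry in their promoters the CLEAR element, described in human cells as a binding site of the transcription factor TFEB, which has the E-box CACGTG at its core. RefSeq promoter sequences (GRCm38.p6, the assembly of mm10) were matched by symbol for 37 of the 40 members, and Asah1, Galns and Hgsnat had no match. Shown are the 250 bases before the annotated start of the 2 membrane protein and 2 enzyme genes with the smallest p, 5′ to 3′ on the gene's strand, with CACGTG in capitals.
Lamp1 (chr8:13158911-13159160, plus strand): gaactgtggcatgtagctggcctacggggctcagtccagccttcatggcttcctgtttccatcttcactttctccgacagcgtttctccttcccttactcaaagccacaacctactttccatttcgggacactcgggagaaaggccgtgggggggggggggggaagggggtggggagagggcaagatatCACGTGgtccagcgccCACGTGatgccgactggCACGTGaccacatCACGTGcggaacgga
Cd68 (chr11:69666171-69666420, minus strand): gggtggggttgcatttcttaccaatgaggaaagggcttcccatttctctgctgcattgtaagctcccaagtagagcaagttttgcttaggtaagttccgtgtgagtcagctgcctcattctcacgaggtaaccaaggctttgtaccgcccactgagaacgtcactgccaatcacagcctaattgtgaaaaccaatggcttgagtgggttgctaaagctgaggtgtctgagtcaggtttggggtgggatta
Man2b1 (chr8:85083019-85083268, plus strand): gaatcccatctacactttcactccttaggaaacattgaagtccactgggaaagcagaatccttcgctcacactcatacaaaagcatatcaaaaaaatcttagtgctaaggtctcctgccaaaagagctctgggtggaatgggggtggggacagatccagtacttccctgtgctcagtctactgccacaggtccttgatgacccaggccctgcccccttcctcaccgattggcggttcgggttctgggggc
Hexa (chr9:59539290-59539539, plus strand): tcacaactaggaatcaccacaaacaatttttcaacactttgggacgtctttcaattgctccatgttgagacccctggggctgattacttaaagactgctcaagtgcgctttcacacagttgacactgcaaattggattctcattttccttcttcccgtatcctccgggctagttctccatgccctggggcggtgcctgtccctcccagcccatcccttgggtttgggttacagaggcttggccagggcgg
Lamp1 holds 4 copies of CACGTG, which begin 61, 45, 28 and 15 bases before its start, and the other promoters shown hold 0. Of 27025 genes with a RefSeq promoter, 5 (0.0185%) hold at least 4 copies in those 250 bases, a count made after the Lamp1 promoter had been seen.

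The search covered windows of 300 bases, with 250 before the start and 50 after it, on both strands. CACGTG was found for 10 of 37 members (27.03%), against 8.09% of all genes with a window. TCACGTG, which contains CACGTG, was found for the same 10 members, against 4.29% of genes. The sites of Cln3 and Lgmn lie in the window of a second RefSeq start inside the gene, and those of Naglu and Sgsh lie wholly or partly inside the GENCODE gene, whose start differs from that in RefSeq. The sites of the members other than Lamp1 are shown with 2 bases on each side, 1 line per site, again with CACGTG in capitals.
Sumf1 (chr6:108185587-108185596, minus strand): gtCACGTGat
Cln3 (chr7:126583378-126583387, minus strand): agCACGTGat
Cln3 (chr7:126583350-126583359, minus strand): gtCACGTGac
Glb1 (chr9:114401028-114401037, plus strand): gtCACGTGgc
Naglu (chr11:101070019-101070028, plus strand): gtCACGTGgc
Gaa (chr11:119267821-119267830, plus strand): atCACGTGtt
Sgsh (chr11:119355532-119355541, minus strand): tgCACGTGac
Lgmn (chr12:102439134-102439143, minus strand): gtCACGTGgt
Arsa (chr15:89477433-89477442, minus strand): gtCACGTGtt
Gla (chrX:134601225-134601234, minus strand): atCACGTGag
Gla (chrX:134601192-134601201, minus strand): gtCACGTGag
Of the 10 members with CACGTG, 7 had fitted log2 fold changes below 0 and 3 above (median −0.17, from −0.69 for Lamp1 to 0.32 for Gla). Of the 26 tested members without it, 15 lay below and 11 above 0 (median −0.078). A match of letters describes the sequence and does not show that a factor binds there.

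Lamp2 encodes the close relative of LAMP1, and one of its splice forms is the receptor of chaperone-mediated autophagy. Its levels were 1674, 1624, 1678 and 1592 CPM in KI 513, KI 526, KI 528 and KI 549, against 1555, 1698, 1536 and 1576 CPM in WT 503, WT 504, WT 506 and WT 527, with overlap. The log2 fold change was 0.045 (95% interval −0.064 to 0.16), and it was −0.059 with the GC trend of each library removed, as described further on. The ratio of Lamp1 to Lamp2 in FPKM was 0.694, 0.917, 0.819 and 0.614 in these KI libraries and 1.498, 1.08, 1.202 and 1.29 in these WT libraries. Lamp1 thus had the lower FPKM of the pair in all 4 KI libraries and the higher in all 4 WT libraries. The annotated exons sum to 2675 bases for Lamp1 and 9552 bases for Lamp2, so this order depends on the annotated lengths. In CPM, which does not divide by length, Lamp2 lay above Lamp1 in every library.

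Cd68 had the opposite direction. Its levels were 1660.0, 1697, 1841 and 1633 CPM in KI 513, KI 526, KI 528 and KI 549, against 1528, 1614, 1430.1 and 1576 CPM in WT 503, WT 504, WT 506 and WT 527. All KI libraries lay above all WT libraries, with KI 549 and WT 504 the nearest. The log2 fold change was 0.15 (95% interval 0.024 to 0.28), with an adjusted p of 0.598 by edgeR, and ran from 0.11 to 0.18 with 1 library left out. KI 528, the highest library, also had the highest summed markers of monocytes and border-associated macrophages, and their part in the level of Cd68 was not tested.

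Cd63, a tetraspanin of late endosomes, lysosomes and exosomes, had 336, 378, 408 and 371 CPM in KI and 368, 354, 300.2 and 323 CPM in WT, in the same order of libraries, which is kept from here on. KI 513 lay among the WT libraries and the other KI libraries above them (log2 fold change 0.15, 95% interval −0.032 to 0.33). Laptm5, which in lymphocytes promotes the lysosomal degradation of antigen receptors, had 2942, 2707, 3089 and 2961 CPM in KI and 2884, 3338, 3016 and 3176 CPM in WT, with overlap (log2 fold change −0.086, 95% interval −0.22 to 0.048). Laptm4a, a broadly expressed relative of Laptm5, had 917, 904, 985 and 1010.4 CPM in KI and 960.3, 964, 867 and 939.6 CPM in WT. Scarb2 encodes LIMP-2, the receptor that carries glucocerebrosidase to lysosomes. Its levels were 216, 231, 223 and 225 CPM in KI and 227, 208, 214 and 221 CPM in WT. Cln3, the membrane protein lost in juvenile Batten disease, had 86.05, 80.03, 77.5 and 90.4 CPM in KI and 78.8, 75.6, 89.9 and 82.3 CPM in WT. The groups overlapped for these genes. The log2 fold changes were 0.033 for Laptm4a (95% interval −0.10 to 0.16), 0.041 for Scarb2 (95% interval −0.085 to 0.17) and 0.032 for Cln3 (95% interval −0.16 to 0.22).

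**Figure D3:**
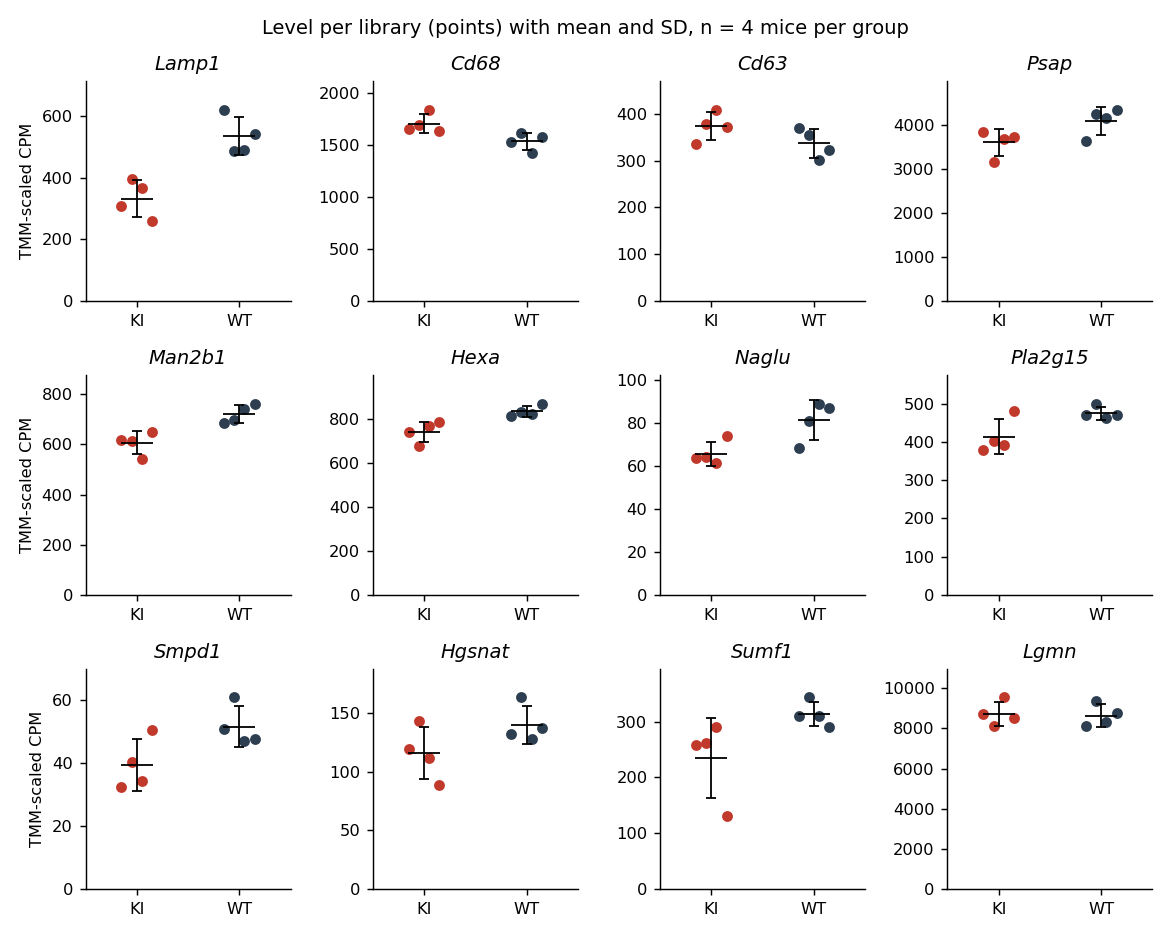
TMM-scaled CPM in each KI and WT library (points) with mean and SD for lysosomal genes named in the text. KI and WT points are separate for Lamp1, Cd68, Man2b1 and Hexa, and the Sumf1 level of 131 CPM in KI 549 lies far below the other KI libraries.

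Among the enzymes that trim sugars from glycoproteins, Man2b1 had the smallest p of the 27 enzymes tested. It encodes the lysosomal alpha-mannosidase, whose loss causes alpha-mannosidosis. Its levels were 618, 613, 543 and 651 CPM in KI 513, KI 526, KI 528 and KI 549, against 687, 699, 741 and 763 CPM in WT 503, WT 504, WT 506 and WT 527. All 4 KI libraries lay below all 4 WT libraries. The log2 fold change was −0.25 (95% interval −0.40 to −0.10), with an adjusted p of 0.507 by edgeR's quasi-likelihood test, 0.0661 by DESeq2 and 0.251 by edgeR's likelihood ratio test. Manba, the beta-mannosidase that acts on the same chains, had 74.02, 56.5, 57.7 and 71.3 CPM in KI and 69.3, 72.9, 72.8 and 74.3 CPM in WT, with overlap (log2 fold change −0.16, 95% interval −0.39 to 0.077). The fucosidase gene Fuca1 averaged 407 ± 26.3 CPM in KI and 391 ± 22.6 in WT, and the sialidase gene Neu1 47.1 ± 8.42 CPM in KI and 50.6 ± 4.403 in WT, both with overlap.

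For sphingolipid breakdown, Hexa encodes the alpha subunit of beta-hexosaminidase, the enzyme of GM2 ganglioside that is deficient in Tay-Sachs disease. Hexa was read at 738, 677, 765 and 783 CPM in KI 513, KI 526, KI 528 and KI 549, against 813, 829.6, 823 and 869 CPM in WT 503, WT 504, WT 506 and WT 527. Every KI library lay below every WT library, with a log2 fold change of −0.17 (95% interval −0.30 to −0.042) and an edgeR adjusted p of 0.562. Smpd1, the acid sphingomyelinase gene of Niemann-Pick disease, had 32.5, 40.3, 34.2 and 50.5 CPM in KI and 50.7, 60.9, 47.1 and 47.7 CPM in WT. Here KI 549 lay within the WT range and the other KI libraries below it. The log2 fold change of −0.39 (95% interval −0.73 to −0.050, adjusted p = 0.598 by edgeR) ran from −0.53 to −0.30 with 1 library left out. Asah1 had 1425, 1381, 1473 and 1452 CPM in KI and 1430.3, 1409, 1373 and 1387 CPM in WT, with a log2 fold change of 0.033 (95% interval −0.066 to 0.13). Galc, which removes galactose from myelin lipids, averaged 54.9 ± 6.202 CPM in KI and 58.4 ± 4.93 in WT. Glb1, the beta-galactosidase of GM1 ganglioside, averaged 86.5 ± 9.37 CPM in KI and 94.2 ± 3.95 in WT. The alpha-galactosidase gene Gla, affected in Fabry disease, averaged 13.8 ± 2.99 CPM in KI and 11.1 ± 3.78 in WT. Arsa, which removes sulfate from the myelin lipid sulfatide, had 6.64, 6.31, 10.8 and 9.54 CPM in KI and 11.9, 8.59, 10.5 and 8.91 CPM in WT. The groups overlapped for Asah1, Galc, Glb1, Gla and Arsa.

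Of the 8 genes for the breakdown of glycosaminoglycans, the long sugar chains of proteoglycans, 7 had fitted fold changes below 0, with a median log2 fold change of −0.18. Naglu, the alpha-N-acetylglucosaminidase that acts on heparan sulfate, had 63.8, 64.2, 61.4 and 74.2 CPM in KI and 68.5, 80.96, 89.2 and 87.05 CPM in WT. KI 549 lay above WT 503, and the log2 fold change was −0.31 (95% interval −0.54 to −0.075, adjusted p = 0.564 by edgeR). Hgsnat, a membrane-bound acetyltransferase of the same pathway, had 119, 143, 112 and 88.6 CPM in KI and 132, 163, 127 and 137 CPM in WT, with overlap (log2 fold change −0.27, 95% interval −0.58 to 0.031, from −0.40 to −0.17 with 1 library left out). The beta-glucuronidase gene Gusb had 402, 409, 377 and 425 CPM in KI and 425, 438, 451 and 415 CPM in WT (log2 fold change −0.10, 95% interval −0.23 to 0.027). Sgsh, the heparan sulfamidase, was low, with 4.16, 5.75, 3.06 and 3.804 CPM in KI and 4.27, 5.07, 4.64 and 5.57 CPM in WT. Idua (alpha-iduronidase) averaged 32.8 ± 9.81 CPM in KI and 39.4 ± 5.799 in WT, and Arsb (arylsulfatase B) 68.7 ± 8.65 CPM in KI and 76.2 ± 7.16 in WT. The sulfatase gene Galns averaged 15.4 ± 2.24 CPM in KI and 15.99 ± 2.44 in WT. Ids, which removes sulfate from iduronate, averaged 18.8 ± 3.99 CPM in KI and 16.4 ± 2.85 in WT and was the gene of this set above 0, at a log2 fold change of 0.19 (95% interval −0.23 to 0.62, from 0.060 to 0.31 with 1 library left out). All 8 genes had overlapping groups.

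Of the enzymes of other lipids, Pla2g15, a lysosomal phospholipase, had 379.6, 402, 391 and 481 CPM in KI and 469, 500.0, 462 and 469 CPM in WT. The KI libraries other than KI 549 lay below all WT libraries, and the log2 fold change was −0.20 (95% interval −0.37 to −0.027, adjusted p = 0.598 by edgeR). Lipa, the acid lipase that frees cholesterol from its esters, averaged 375 ± 31.1 CPM in KI and 368 ± 23.1 in WT (log2 fold change 0.025). Lgmn, the most abundant member, had 8744, 8112, 9551 and 8504 CPM in KI and 8105, 9362, 8329.6 and 8781 CPM in WT, with overlap (log2 fold change 0.014, 95% interval −0.13 to 0.15). Ppt1, a thioesterase that removes palmitate from proteins, had 879, 852, 895 and 783 CPM in KI and 814, 841, 797 and 828 CPM in WT (log2 fold change 0.056, 95% interval −0.067 to 0.18). The peptidase gene Tpp1 averaged 659.9 ± 28.97 CPM in KI and 689.7 ± 62.3 in WT. The acid phosphatase gene Acp2 averaged 355 ± 12.4 CPM in KI and 373 ± 33.6 in WT, and the acid nuclease gene Dnase2a 38.7 ± 4.98 CPM in KI and 43.2 ± 3.23 in WT. Gaa, the glycogen-degrading alpha-glucosidase of Pompe disease, averaged 27.03 ± 5.14 CPM in KI and 27.1 ± 4.71 in WT. Some enzyme genes overlap a neighbour: Glb1 with Tmppe (319.5 reads on average, against 4501 for Glb1) and Ppt1 with Cap1 (3807 against 41496).

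The activators had different directions. Psap had 3832, 3156, 3681 and 3726 CPM in KI and 3618, 4242, 4154 and 4337 CPM in WT, and WT 503 lay within the KI range. Its log2 fold change was −0.18 (95% interval −0.35 to −0.016), with an adjusted p of 0.609 by edgeR. Gm2a, which lifts GM2 ganglioside out of membranes for beta-hexosaminidase, had 759.7, 761, 786 and 674 CPM in KI and 725, 747, 688 and 755 CPM in WT (log2 fold change 0.032, 95% interval −0.10 to 0.17). Of the maturation factors, Sumf1, which activates sulfatases in the endoplasmic reticulum, had 258, 261, 291 and 131 CPM in KI and 309.6, 344, 311 and 291 CPM in WT. KI 549 was far below the other libraries, and the log2 fold change of −0.42 (95% interval −0.86 to 0.032) was −0.22 without it. Gnptab, a subunit of the Golgi enzyme that starts the mannose 6-phosphate tag, varied within both groups, with 30.8, 33.3, 18.3 and 19.97 CPM in KI and 14.6, 30.7, 20.8 and 24.3 CPM in WT (log2 fold change 0.18, 95% interval −0.40 to 0.76).

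Compared by class, 20 of 27 enzymes (74.1%) had fitted fold changes below 0, against 2 of 8 membrane protein genes (25%) and 49.9% of all genes tested, of which 50.1% lay above 0. Hgsnat, an enzyme bound to the membrane, is counted with the enzymes. The median log2 fold change was −0.10 for the enzymes, 0.037 for the membrane proteins and 0.00053 for all genes. At an unadjusted p under 0.05 there were 5 enzymes (18.5%), all lower, and 2 membrane protein genes (25%), 1 in each direction. Of all genes tested, 4.56% were lower and 3.23% higher at that p, 7.79% in all. In the lists without members described further on, 13 of 25 other enzymes and soluble proteins and 14 of 19 other membrane proteins lay below 0. The contrast between the classes was thus not seen in those lists. Because the members were chosen with earlier results of these data known, the classes are described without a test.

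The mean log2 level of the enzymes, centred over the 8 libraries, was −0.045, −0.084, −0.12 and 0.036 in KI 513, KI 526, KI 528 and KI 549, against 0.0046, 0.12, 0.021 and 0.064 in WT 503, WT 504, WT 506 and WT 527. KI 549 thus lay among the WT libraries and the other KI libraries below them, and without KI 549 the median fold change of the enzymes was −0.17. For the membrane proteins the same measure was −0.057, −0.011, 0.035 and −0.048 in KI and 0.054, 0.033, −0.036 and 0.031 in WT, with overlap. The difference, enzymes minus membrane proteins, averaged −0.033 ± 0.10 in KI and 0.033 ± 0.059 in WT (SD, n = 4 each), and the groups overlapped. With Lamp1 left out of the membrane proteins, a choice made after its values were seen, the difference averaged −0.079 ± 0.078 in KI and 0.079 ± 0.039 in WT.

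**Figure D4:**
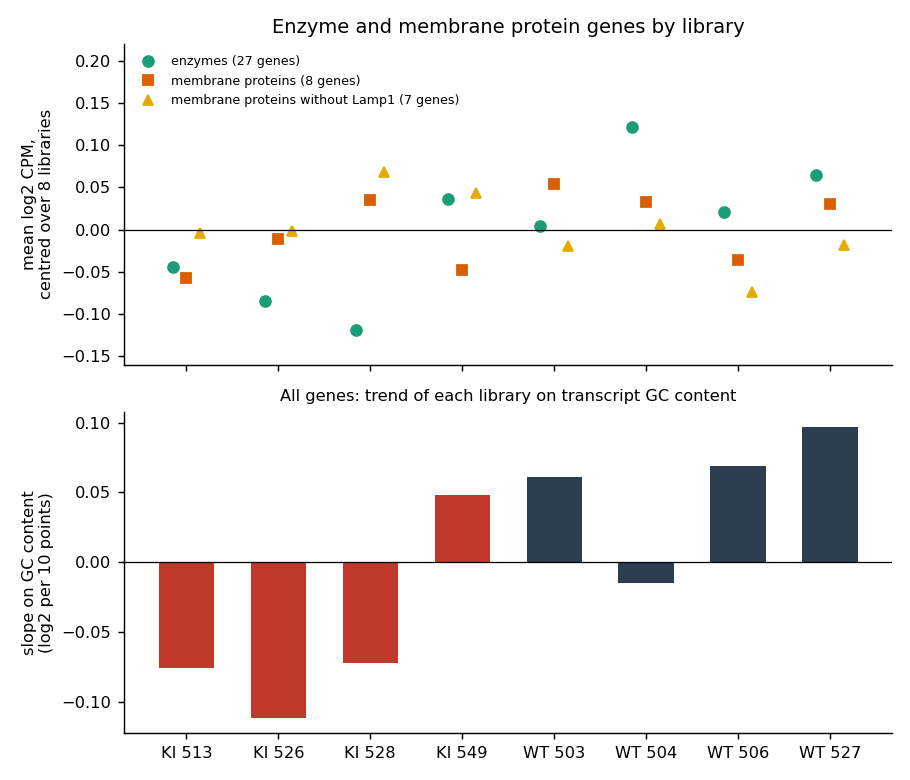
Upper panel: mean log2 CPM of the enzymes and membrane proteins in each library, centred over the 8 libraries. Lower panel: slope of each library's log2 level on transcript GC content over genes above a limit on mean level, members or not, where KI 549 is the 1 KI library with a positive slope (0.0484) and WT 504 the 1 WT library with a negative one (−0.0148).

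The fold changes of the enzymes moved with GC content, and the fit was repeated with the GC trend of each library removed. The slope of each library's log2 level on the GC content of the longest transcript was fitted over genes above a limit on mean level. It was −0.07604, −0.112, −0.0725 and 0.0484 per 10 points in KI 513, KI 526, KI 528 and KI 549, against 0.0608, −0.0148, 0.06904 and 0.09701 in WT 503, WT 504, WT 506 and WT 527. Among all genes tested, 58.9% of those with at least 50% GC lay below 0, against 43.4% of those under 50%. Of the enzymes, 16 of 18 with at least 50% GC lay below 0, and 4 of 9 under 50%. The enzymes with an unadjusted p under 0.05 had a GC content from 54.1% (Man2b1) to 59.8% (Naglu). Across the 27 enzymes, fold change and GC content had a Pearson r of −0.57 and a Spearman rho of −0.60, against −0.11 and −0.18 across 17284 genes. Across the 8 membrane protein genes they were −0.043 and 0.024. These correlations describe genes that share the same 8 libraries. The median GC content was 52.2% for the enzymes and 51.3% for the membrane protein genes, so it differed little between the classes.

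With the GC trend removed, 4 members had an unadjusted p under 0.05 (10.3%, against 7.06% of all genes): Lamp1, Man2b1, Cd68 and Cd63. Lamp1 was then at a log2 fold change of −0.65, Man2b1 at −0.19, Cd68 at 0.20 and Cd63 at 0.25. Hexa was at −0.10 (unadjusted p = 0.0747 by edgeR), Naglu at −0.19 (0.0726), Pla2g15 at −0.14 (0.0784), Smpd1 at −0.32 (0.0545) and Psap at −0.12 (0.128). By class, 1 of 27 enzymes (3.7%) and 3 of 8 membrane protein genes (37.5%) then had an unadjusted p under 0.05 by edgeR. The median of the enzymes was −0.089, with 20 of 27 below 0. That of the membrane protein genes was 0.025, with 3 of 8 below 0, and that of all genes −0.0079. The slopes differed in part by group, so library GC trends and group differences that follow GC content cannot be told apart.

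**Figure D5:**
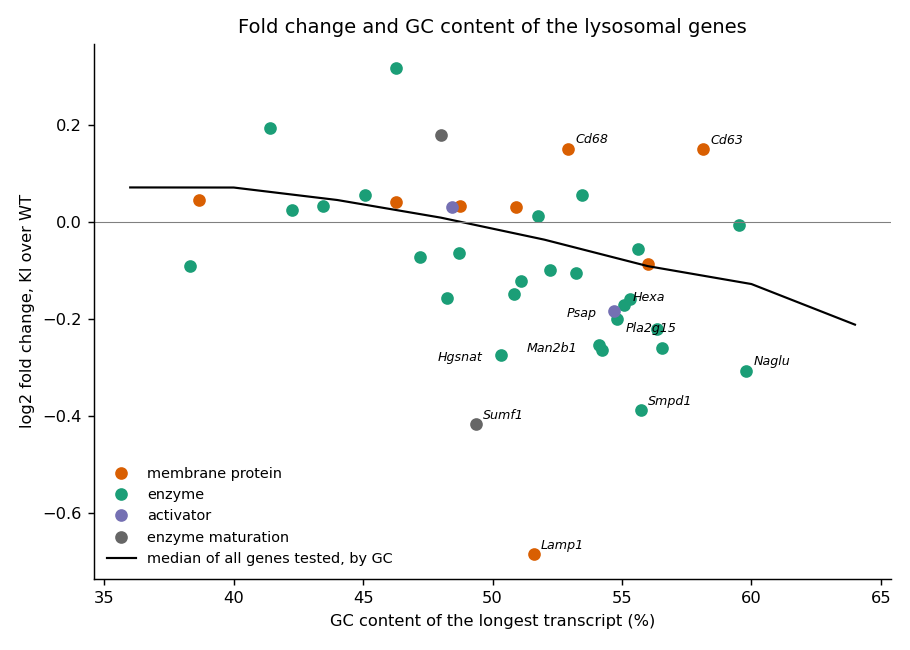
Fitted log2 fold change, KI over WT, against the GC content of the longest transcript for the 39 members tested, with the median of all genes tested in windows of 4 points of GC (line). The line runs from 0.072 at 36% to −0.21 at 64% GC, most enzymes above 50% GC lie below it, and Cd68 and Cd63 lie above it.

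Other genes of the pathway, from lists that hold no member, were read in the same fit. Among those reported, 0 were called by edgeR's quasi-likelihood test and 0 by its likelihood ratio test, while DESeq2 called Spns1 and Nagpa. DESeq2 called 1.26% of all genes it adjusted. Of all genes tested by edgeR, 49.9% lay below 0. At an unadjusted p under 0.05, 4.56% of them were lower and 3.23% higher in KI, 7.79% in all. Of 25 other lysosomal enzymes and soluble proteins, 13 lay below and 12 above 0 (median log2 fold change −0.036), with 2 lower and 1 higher at an unadjusted p under 0.05 (12% in all). The sulfatase gene Arsg averaged 24.5 ± 2.62 CPM in KI and 35.1 ± 7.57 in WT, without overlap (log2 fold change −0.52, 95% interval −0.87 to −0.16, adjusted p = 0.533 by edgeR), and Plbd2 21.5 ± 4.26 CPM in KI and 28.2 ± 2.38 in WT, with overlap (log2 fold change −0.40, 95% interval −0.73 to −0.059). The peptidase gene Dpp7, the 1 higher gene, averaged 78.8 ± 6.45 CPM in KI and 68.6 ± 2.98 in WT, without overlap (log2 fold change 0.20, 95% interval 0.012 to 0.39).

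Of 19 other lysosomal membrane proteins, 14 lay below and 5 above 0 (median log2 fold change −0.041), with 2 lower at an unadjusted p under 0.05 (10.5%, against 4.56% of all genes). Spns1, which exports lysophospholipids from lysosomes, averaged 18.4 ± 3.32 CPM in KI and 27.6 ± 2.61 in WT, without overlap (log2 fold change −0.58, adjusted p = 0.507 by edgeR and 0.0245 by DESeq2). Npc1, the cholesterol exporter of Niemann-Pick type C disease, averaged 123 ± 7.65 CPM in KI and 152 ± 16.4 in WT, also without overlap (log2 fold change −0.31), and Cd164, a sialomucin, 1168 ± 63.7 CPM in KI and 1260.2 ± 84.5 in WT, with overlap. Of 14 genes that sort enzymes to lysosomes, 12 lay below and 2 above 0 (median −0.11), with 3 lower at an unadjusted p under 0.05 (21.4%, against 4.56% of all genes). Nagpa, which uncovers the mannose 6-phosphate tag, had 104, 95.1, 87.4 and 106 CPM in KI and 112, 128, 138 and 145 CPM in WT, without overlap (log2 fold change −0.41, adjusted p = 0.507 by edgeR and 0.0241 by DESeq2). The adaptor gene Gga2 averaged 9.73 ± 3.74 CPM in KI and 15.5 ± 1.78 in WT (log2 fold change −0.67), and Ap1g1 56.8 ± 7.06 CPM in KI and 67.2 ± 4.11 in WT (log2 fold change −0.24).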

How the data were processed

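The submitters' processing notes name STAR 2.7.5c, SAMtools 1.9, R 3.6.0, featureCounts 2.0.3, limma and edgeR, and the build mm10. Per the file headers, featureCounts produced the deposited counts per gene from exons, in paired-end mode, with secondary alignments and chimeric fragments dropped and strand ignored. No option makes a pair count once, and 68.9% to 70.8% of counts between 1 and 9 were even. The authors deposited FPKM values too, which equal the count scaled by library total and by exon length less about 189 bases. The deposited normalized signal equals the count over 1 size factor per library: 100% of its values gave whole reads (tolerance 0.01), equal to the counts. A further 8 columns of the count table were not used. Of 54532 identifiers, 54409 matched a GENCODE symbol.

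Counts went into edgeR 4.0.16 (R 4.3.3) with filterByExpr (minimum count 10, minimum total 15), TMM scaling and a robust quasi-likelihood fit on group alone, Benjamini-Hochberg adjusted. Alternatives were DESeq2 1.42.0, limma 3.58.1, edgeR's likelihood ratio test, and other scalings, filters and pseudocounts. Further ones were halved counts, removal of GC and length trends, and leaving out each library. The steps were tested on simulated data. Each group has 4 mice. Members, lists and tests were chosen with earlier results of these data known. Values in every library are given for membrane, activator and maturation genes and for the enzymes with the 8 smallest p, the 4 highest and the 3 lowest FPKM. Of each list of other lysosomal genes, the 3 with the smallest p are named. From the list of other lysosomal enzymes, 1 gene is not reported here, and the counts leave it out. Protein sequences were not used here.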

Additional observations from a re-analysis of the deposited data

Results flagged for a closer look

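In each of 80 groups of 4 libraries (40 members, KI and WT), the highest and the lowest library were compared with the rest by Dixon's ratio at its 95% critical value, which chance passes in about 1 of 20 groups. In 2 groups KI 549 stood apart. Neu1 was at 59.6 CPM in KI 549, against 41.4 to 44.0 CPM in the other KI libraries. Gaa was at 34.7 CPM in KI 549, against 23.7 to 25.5 CPM in the other KI libraries. KI 549 had the highest level of the KI libraries for 13 of 27 enzymes, and KI 528 the lowest for 11. Of the WT libraries, WT 504 was the highest for 12 enzymes and WT 503 the lowest for 12.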

How the results depend on the processing

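The 39 members tested and the 9 other lysosomal genes named gave 1056 log2 fold changes under the alternatives, of which 1026 kept the direction and the side of the threshold. The main fit called 0 genes, so a gene kept its side wherever it stayed uncalled. Alternatives that change only the test or the scaling leave the fold changes nearly the same, so this count is a weak check. DESeq2 called 248 genes and 1 member, the likelihood ratio test 42 genes and 1 member (Lamp1 in both), and limma-trend on log2(FPKM + 1) called 1 gene and 0 members. Spns1 and Nagpa passed the threshold with DESeq2. The cause was not tested. The count of members at an unadjusted p under 0.05 was 4 without the GC trend and 5 without GC and length trends, and ranged from 5 to 12 with 1 library left out, where the share of all genes was 5.67% to 9.13%. With 1 library left out, the median of the enzymes ranged from −0.17 to −0.079. The direction turned for Lamp2 (−0.059 without the GC trend and −0.026 without both trends) and, in the same order, for Asah1 (−0.021 and −0.030), Galns (0.020 and 0.012), Gaa (0.10 and 0.12, and 0.011 with limma-voom) and Lipa (−0.041 and −0.056). With 1 library left out it turned for Laptm4a (−0.00013 to 0.054), Cln3 (−0.0084 to 0.082), Galns (−0.14 to 0.017), Gaa (−0.15 to 0.10), Lipa (−0.022 to 0.077) and Lgmn (−0.032 to 0.054). The test on reads recovered from the normalized signal, added after seeing the data, called 0 genes. Those reads equal the counts, so its values could not differ from the main fit, although they are among the alternatives counted above. No paired analysis was possible because the groups share no mouse number. Depth limits Acp5, which failed the filter on low counts.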
